A study of Mus musculus with 6 samples.

Results

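The 32 genes described here encode the enzymes that build cholesterol and fatty acids and the proteins that control them. They were chosen by symbol, and all 32 were among the 27179 genes of the deposited count table and among the 12967 with enough counts to be tested. They fall into 7 enzymes of the mevalonate steps, 11 enzymes from squalene to cholesterol, 8 fatty acid enzymes, and 6 genes of SREBP control and sterol carriage. Their RNA was measured in mouse group 2 innate lymphoid cells (ILC2s), tissue lymphocytes that secrete type 2 cytokines without an antigen receptor. The cells were sorted into a Chat negative gate (samples 1, 2 and 3) and a Chat positive gate (samples 1, 2 and 3), and each sample gave 1 RNA-seq library. Chat is choline acetyltransferase, the enzyme that makes acetylcholine. The tissue, strain, age, any stimulus, the number of animals and the way Chat was detected are not given in the labels used here. Whether the 3 samples of a gate are separate animals is not said in the labels. P-values therefore cover the spread between the samples as deposited, and that spread may be technical.

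Cholesterol is built from acetyl-CoA through mevalonate and isoprenoid intermediates to squalene, which is closed into a ring and trimmed to cholesterol. Fatty acids are built from the same acetyl-CoA by carboxylation, chain extension and desaturation. Both routes are driven by the SREBP transcription factors, which stay in the endoplasmic reticulum with their escort SCAP while sterols are plentiful, held there by INSIG proteins, and are released to the nucleus when sterols run low. In lymphocytes these routes supply membrane, and they are known to be raised when cells are activated to grow and divide.

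The libraries held 37154269 to 50361306 counts, and the 32 genes together took 0.717% to 0.870% of a library's counts. The smallest count of any of them in a library was 325. Levels are given as CPM, counts relative to the library size after TMM scaling. Chat itself was 16.5, 26.5 and 17.5 CPM in the Chat negative and 188, 169 and 204 CPM in the Chat positive libraries, so every library went with its label. The 10 ILC2 markers examined, led by the cytokine gene Il5, summed to 15402 to 17665 CPM in the Chat negative and 17081 to 23097 CPM in the Chat positive libraries. The libraries numbered 2 stood apart in both gates. Within a gate, chi-square per degree of freedom between libraries was 132 to 187 for the pairs with number 2 and 31.4 to 31.97 for numbers 1 and 3. Several marker sums also differed in number 2. The ILC2 sum was lowest there in both gates, but its genes did not all follow. Il5, Gata3, Il1rl1, Il7r, Klrg1 and Thy1 were lowest there in both gates. Il2ra was highest there, at 5777 CPM in the Chat negative and 5755 CPM in the Chat positive gate. The mast cell or basophil list, in which 7 of 8 genes had at most 10 counts in every library, summed to 30.8 and 25.0 CPM in number 2 and to 124 to 203 CPM elsewhere. The macrophage or monocyte list summed to 8.39 and 8.35 CPM in number 2 and to 20.3 to 23.9 CPM elsewhere, with 5 of 8 genes at or below 10 counts. The ILC1 or NK list went the other way, at 23.2 and 17.1 CPM in number 2 of the Chat negative and Chat positive gates, against 14.2 to 17.7 and 8.67 to 12.9 CPM in their other libraries. Nkg7 led that list at 332 to 1001 counts a library, Klrd1 had 2 to 50 counts, Tbx21 0 to 15, and no library had more than 10 counts of Ncr1, Klrb1c or Eomes. The T cell list summed to 25.3 to 45.5 CPM in the Chat negative and 20.3 to 45.3 CPM in the Chat positive libraries, lowest in number 2 of both gates. Adipocyte and hepatocyte markers, from cell types rich in these enzymes, summed to at most 0.0922 CPM in any library.

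The promoters of 4 of the genes are shown because they hold, or lack, the letters that SREBPs and their partner NF-Y are known to bind. RefSeq (GRCm38.p6) promoter windows of 250 bases before the annotated start were at hand for 25 of the 32 genes. Each is written 5′ to 3′ on the strand of the gene, and capitals mark a match on either strand to TCACNCCAC (a sterol response element), CACGTG (an E-box) or CCAAT (the NF-Y box, ATTGG on the opposite strand). Capitals that mark one motif did not overlap those of another. The Hmgcs1 window lies at chr13:119690101-119690350 on the plus strand, Insig1 at chr5:28071162-28071411 on the plus strand, Msmo1 at chr8:64733579-64733828 on the minus strand and Fads2 at chr19:10101504-10101753 on the minus strand.
Hmgcs1 promoter: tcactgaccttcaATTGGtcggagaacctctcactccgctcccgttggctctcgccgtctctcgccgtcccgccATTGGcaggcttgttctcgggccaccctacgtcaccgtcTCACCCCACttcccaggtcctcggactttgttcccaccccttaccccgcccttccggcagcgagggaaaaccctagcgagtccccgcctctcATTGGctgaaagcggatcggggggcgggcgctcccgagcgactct
Insig1 promoter: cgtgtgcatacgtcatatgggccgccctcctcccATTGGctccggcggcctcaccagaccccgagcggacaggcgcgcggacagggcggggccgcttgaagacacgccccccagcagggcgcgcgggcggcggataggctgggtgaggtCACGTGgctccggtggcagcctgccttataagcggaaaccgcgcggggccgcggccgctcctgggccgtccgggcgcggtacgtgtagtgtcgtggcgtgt
Msmo1 promoter: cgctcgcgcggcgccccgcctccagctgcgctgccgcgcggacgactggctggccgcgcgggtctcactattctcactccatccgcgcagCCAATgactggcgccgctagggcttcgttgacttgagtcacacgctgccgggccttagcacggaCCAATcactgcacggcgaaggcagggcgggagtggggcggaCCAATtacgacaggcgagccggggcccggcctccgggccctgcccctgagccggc
Fads2 promoter: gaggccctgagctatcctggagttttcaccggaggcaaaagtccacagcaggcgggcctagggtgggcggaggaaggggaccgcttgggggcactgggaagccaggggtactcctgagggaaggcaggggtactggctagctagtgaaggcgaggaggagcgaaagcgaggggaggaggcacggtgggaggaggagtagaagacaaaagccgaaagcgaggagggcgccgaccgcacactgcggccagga
Hmgcs1 held the only sterol response element letters among the 25 windows, starting 137 bases before the start, with 3 NF-Y boxes. Insig1 held an E-box and an NF-Y box, Msmo1 held 3 NF-Y boxes, and Fads2 held none of the 3 motifs. Over the 25 windows, NF-Y box letters were in 19 (76%), against 37.5% of all genes with a window. The E-box was in 5 (20%), namely Hsd17b7, Sc5d, Dhcr7, Scap and Insig1, against 6.86% of all genes. The sterol response element letters were in 1 (4%), against 1.22% of all genes. Fasn, Mvd, Lss, Srebf1 and Srebf2 were among the genes with the NF-Y box, and Acly and Acaca were not. A match is a run of letters, and no factor binding was measured here.

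None of the 32 genes was called different between the gates. The test was edgeR's quasi-likelihood test, two-sided, fitted over all 12967 genes with Benjamini-Hochberg adjustment and a threshold of 5%. It called 1 gene of all those tested, which is 0.00771%, and it was Chat, at an adjusted p of 0.0174. At an unadjusted p under 0.05, 2 of the 32 genes were lower in Chat positive cells, Scd1 and Scd2, and 0 were higher. Among all genes tested, 1.28% were lower at that p. DESeq2 and limma-voom without the sample number as a term also called 0 of the 32. Log2 changes, given as Chat positive minus Chat negative, were above 0 for 14 genes and below 0 for 18, with a median of -0.022 and a range of -0.39 to 0.16. The median over all genes tested was 0.0044. In bulk samples such as these, fewer cells of a type and less RNA per cell cannot be told apart.

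**Figure D1:**
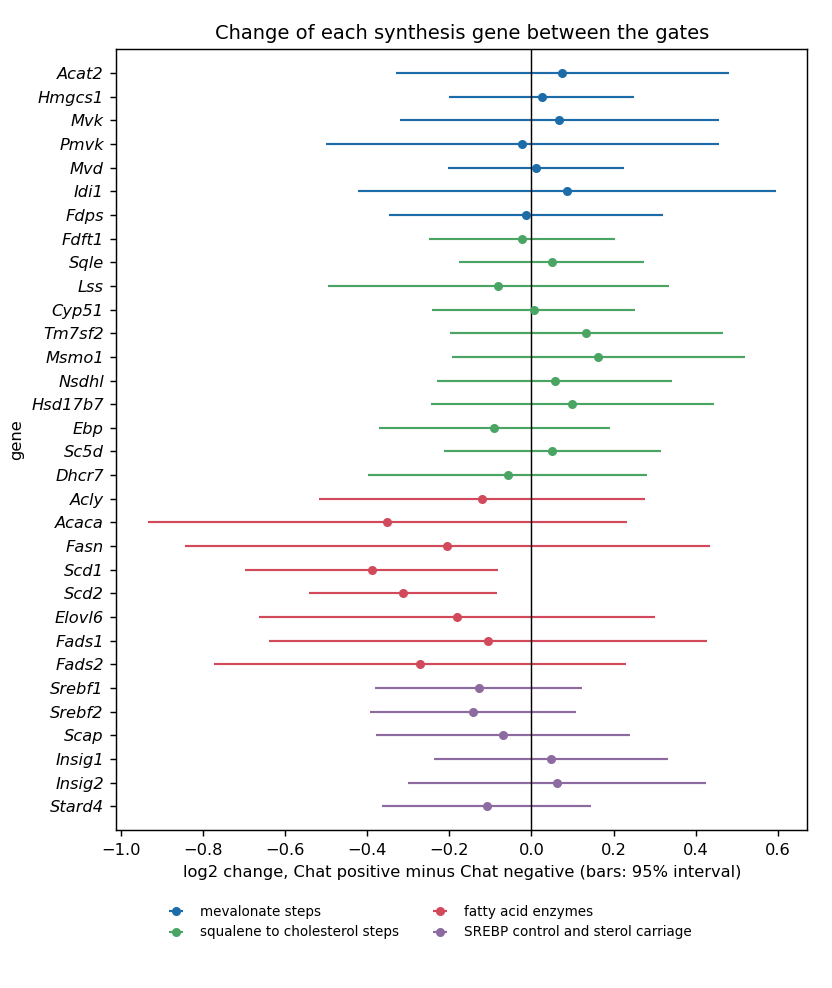
Log2 change of each gene, Chat positive minus Chat negative, with its 95% interval from the edgeR fit over 3 libraries a gate, by arm. All 8 fatty acid enzymes lie below 0, from -0.39 to -0.11, and the intervals of Scd1 and Scd2 leave out 0, without adjustment over all genes.

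The mevalonate enzymes had small log2 changes between the gates. The changes were above 0 for 5 of 7 and below 0 for 2, with a median of 0.025 and a range of -0.022 to 0.087, and in all 7 the gates overlapped. With a correction for the length and GC content of transcripts the median was -0.032, so its sign depended on that choice. Hmgcs1, which makes HMG-CoA and carried the sterol response element letters shown above, was 568, 603 and 623 CPM in the Chat negative and 575, 607 and 644 CPM in the Chat positive libraries. Its log2 change of 0.025 (SE 0.096) had a 95% interval of -0.20 to 0.25. Acat2, the thiolase that joins acetyl-CoA units ahead of it, was 83.5, 114 and 89.04 CPM in the Chat negative and 97.6, 119 and 85.4 CPM in the Chat positive libraries. Its level was highest in number 2 of each gate, at about the same height in both gates. The kinases Mvk and Pmvk and the decarboxylase Mvd, which turn mevalonate into isopentenyl diphosphate, had log2 changes of 0.068, -0.022 and 0.011. Idi1, the isomerase of that product, was 10.1 ± 1.36 CPM in the Chat negative and 10.7 ± 2.42 CPM in the Chat positive libraries (SD, n = 3). Fdps, which makes farnesyl diphosphate for both sterols and protein prenylation, was 226 ± 37.5 CPM in the Chat negative and 223 ± 18.5 CPM in the Chat positive libraries (SD, n = 3). Its interval of -0.35 to 0.32 was wider than that of Hmgcs1, and its 3 Chat negative libraries ran from 197 to 268 CPM.

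From squalene to cholesterol, 7 of 11 genes had log2 changes above 0 and 4 below, with a median of 0.049 and a range of -0.091 to 0.16. With the same correction the median was -0.016. No gene of the arm separated the gates. Msmo1, the oxidase that removes methyl groups from the sterol ring, had the log2 change farthest above 0 of the 32 genes. It was 413, 396 and 509 CPM in the Chat negative and 505, 415 and 555 CPM in the Chat positive libraries. The Chat positive value exceeded the Chat negative value of the same number in 3 of 3 numbers, but the ranges of the gates overlapped. Its log2 change was 0.16 (SE 0.15), with a 95% interval of -0.19 to 0.52, and it was 0.052 without Chat positive 3 and 0.28 without Chat negative 3. Tm7sf2, a sterol reductase, was 13.6, 13.5 and 15.4 CPM in the Chat negative and 16.4, 14.7 and 15.6 CPM in the Chat positive libraries, with a log2 change of 0.13 (SE 0.14). Hsd17b7, a sterol ketone reductase, and Sqle, the squalene epoxidase, were also higher in the Chat positive library of all 3 numbers, with log2 changes of 0.10 and 0.049. Sqle was 341 ± 17.5 CPM in the Chat negative and 353 ± 19.5 CPM in the Chat positive libraries (SD, n = 3). The others lay close to 0. Fdft1, the squalene synthase, was at -0.023, Cyp51, the lanosterol demethylase, at 0.0056, Nsdhl, a sterol dehydrogenase, at 0.057 and Sc5d, a sterol desaturase, at 0.051. Lss, which closes the ring, Ebp, the sterol isomerase, and Dhcr7, which catalyses the last reduction, were at -0.080, -0.091 and -0.058. Of the bases in annotated Fdft1 exons, 18.3% lie in exons of Ctsb on the opposite strand. Since the strand setting of the counting is not given, reads there cannot be assigned to one gene. Ctsb was at 467 to 700.3 CPM and, like Fdft1, lowest in number 2.

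All 8 fatty acid enzymes had log2 changes below 0, with a median of -0.24 and a range of -0.39 to -0.11. In 2 of the 8, Scd1 and Scd2, every Chat positive library lay below every Chat negative one. Over all genes tested, 3.61% were lower without overlap, and none of the other 30 genes described here separated the gates in either direction. The Chat positive value was below the Chat negative value of the same number in 3 of 3 numbers for 7 of the 8, with Elovl6 as the exception. Of all 32 genes 14 did so, and of all genes tested 17.2%. The medians of the 8 differences within numbers 1, 2 and 3 were -0.21, -0.26 and -0.27. These counts are a description and no test of the list. Marker sums of 4 other cell types were likewise lower in the Chat positive library of all 3 numbers, namely ILC1 or NK, mast cell or basophil, macrophage or monocyte, and epithelium. Those of B cell, dendritic cell, fibroblast or endothelium, and ILC2 were higher in the Chat positive library of all 3 numbers. The ILC2 sum was led by Il5, at a mean of 9099 CPM, and its genes did not all rise. Of those 10 genes, 6 had log2 changes above 0 and 4 below. Among the 4, Gata3 and Il7r had means of 2281 and 1201 CPM in the Chat negative and 2128 and 1017 CPM in the Chat positive libraries. The epithelial sum, led by Epcam at a mean of 57.3 CPM with Krt8, Sftpc, Sftpa1 and Scgb1a1 at or below 10 counts, was 37.7 to 90.01 CPM in the Chat negative and 34.6 to 58.6 CPM in the Chat positive libraries. The part of these marker sums in the fatty acid result was not tested. Without the Chat negative library of number 2 the median of the 8 log2 changes was -0.051, and without both libraries of number 2 it was -0.24.

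Scd2, a stearoyl-CoA desaturase that makes monounsaturated fatty acids, had the highest level per transcript length of the 32 genes. It was 1665, 1475 and 1592 CPM in the Chat negative and 1269, 1276 and 1261 CPM in the Chat positive libraries. The 3 Chat positive libraries were nearly alike and all lay under the lowest Chat negative library. Mean levels were 1577 ± 95.7 CPM in the Chat negative and 1269 ± 7.34 CPM in the Chat positive libraries (SD, n = 3), which is 19.6% lower. The log2 change was -0.31 (SE 0.097), with a 95% interval of -0.54 to -0.085, an unadjusted edgeR p of 0.0141 and an adjusted p of 1.00. With the sample number as a block the adjusted p was 0.0509 by edgeR and 0.0870 by limma-voom, both above the threshold, and 5.7e-05 by DESeq2.

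Scd1, the related desaturase best known from liver and fat, stood at 8.10 CPM per kilobase where Scd2 stood at 261. It was 43.2, 49.7 and 40.2 CPM in the Chat negative and 35.3, 35.4 and 30.95 CPM in the Chat positive libraries. The gates did not overlap, and number 2 of the Chat negative gate was the highest library. Mean levels were 44.4 ± 4.84 CPM in the Chat negative and 33.9 ± 2.52 CPM in the Chat positive libraries (SD, n = 3), 23.7% lower, with a log2 change of -0.39 (SE 0.13), the lowest of the 32. The 95% interval was -0.70 to -0.081, the unadjusted edgeR p 0.0202 and the adjusted p 1.00. With the block the adjusted p was 0.102 by edgeR and 0.00810 by DESeq2. Scd1 and Scd2 share 2.68% of the 50-base words of the longest Scd2 transcript, and the neighbouring copies Scd3 and Scd4 were at most 0.189 and 0.834 CPM.

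**Figure D2:**
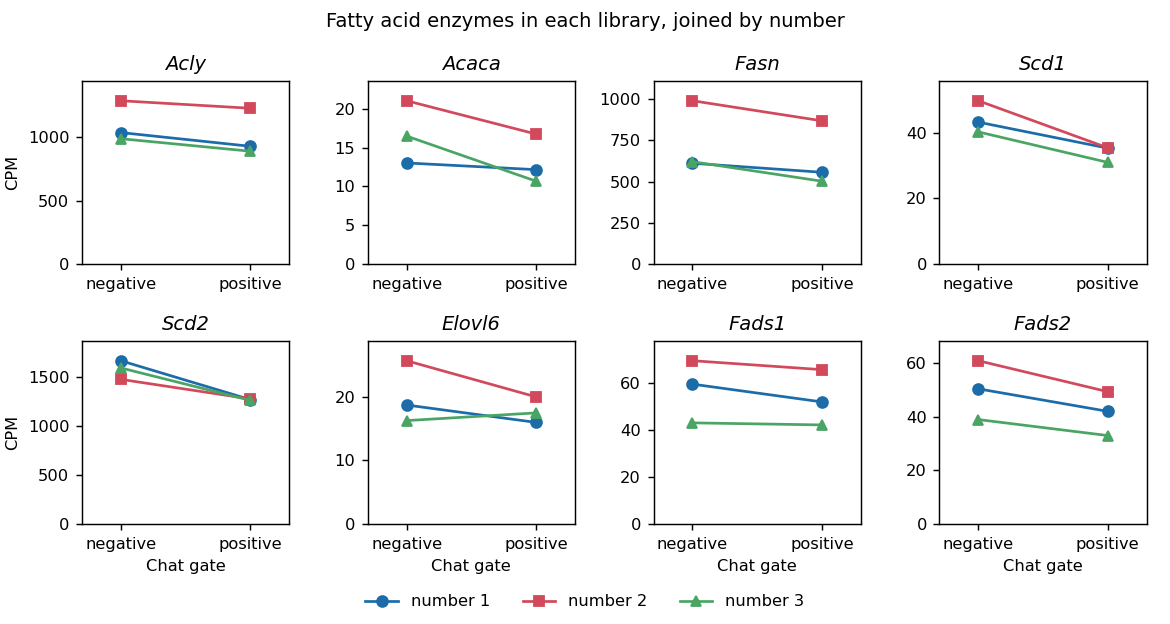
Level in CPM of each fatty acid enzyme in the 3 Chat negative and 3 Chat positive libraries, 1 panel a gene, with lines joining libraries of the same number. Scd1 and Scd2 separate the gates, whereas for Fasn the libraries numbered 2 lie above the others in both gates.

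Fasn, the fatty acid synthase, was 611, 990.1 and 621 CPM in the Chat negative and 557, 868 and 503 CPM in the Chat positive libraries. Within each number the Chat positive library was lower, but the libraries of number 2 lay far above the others in both gates, so the gates overlapped widely. Its log2 change was -0.21 (SE 0.27), with a 95% interval of -0.85 to 0.44, and it was 0.061 without Chat negative 2. With the block the adjusted p was 0.120 by edgeR and 0.0157 by DESeq2. Acly, which makes the cytosolic acetyl-CoA used by both routes, was 1034, 1284 and 986 CPM in the Chat negative and 926, 1225 and 887 CPM in the Chat positive libraries. As with Fasn, number 2 was the highest library of each gate and the Chat positive library was the lower one of each number, with a log2 change of -0.12 (SE 0.17). Acaca, the carboxylase that makes malonyl-CoA and commits acetyl-CoA to fatty acids, was 13.03, 21.03 and 16.5 CPM in the Chat negative and 12.2, 16.7 and 10.7 CPM in the Chat positive libraries. Its log2 change was -0.35 (SE 0.25), and it was -0.16 without Chat negative 2 and -0.56 without Chat positive 2. In addition, 52.6% of its transcript's 50-base words occur in the processed pseudogene Gm5182, so its counts are uncertain.

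The desaturases of polyunsaturated fatty acids and the elongase completed the arm. Fads2 was 50.4, 60.9 and 38.97 CPM in the Chat negative and 42.03, 49.4 and 33.02 CPM in the Chat positive libraries, with a log2 change of -0.27 (SE 0.21) and differences within numbers 1, 2 and 3 of -0.26, -0.30 and -0.24. These differences were alike, while its level in one gate varied more than the gates differed. Leaving out 1 library moved the log2 change to between -0.43 (without Chat negative 3) and -0.11 (without Chat negative 2). Fads1, which acts after Fads2 in the same route, was 59.5, 69.4 and 43.03 CPM in the Chat negative and 51.9, 65.6 and 42.2 CPM in the Chat positive libraries, a log2 change of -0.11 (SE 0.23). Elovl6, which extends palmitate to stearate, was 18.7, 25.6 and 16.2 CPM in the Chat negative and 15.9, 19.9 and 17.4 CPM in the Chat positive libraries, a log2 change of -0.18 (SE 0.20). It was the only enzyme of the 8 whose number 3 library was higher in the Chat positive gate.

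With the sample number as a block, edgeR called 44 genes over the whole table (0.339%), and 0 of the 32 were among them. At an unadjusted p under 0.05 in that fit, 7 of the 32 were lower (Scd1, Scd2, Fasn, Fads2, Acly, Acaca and Srebf1) and 1 was higher (Msmo1). Of all 12967 genes tested, 8.3% were lower at that p and 1060 genes were higher. DESeq2 with the block called 3 of the 32, all lower and all fatty acid enzymes (Fasn, Scd1 and Scd2), and 3.28% of the 8693 genes it adjusted were called lower and 2.2% higher. The block in limma-voom and the block without robust dispersions each called 1 gene over the whole table and 0 of the 32. In DESeq2 with the block, the next smallest adjusted p of the 32 was 0.0583, for Fads2. The log2 changes of Fasn, Scd1 and Scd2 were -0.22, -0.40 and -0.32 there, close to those without the block.

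Of the 6 genes of SREBP control and sterol carriage, 4 had log2 changes below 0 and 2 above, with a median of -0.089 and a range of -0.14 to 0.062, and all overlapped between the gates. Srebf1, which encodes the SREBP forms best known for fatty acid genes, was 323, 299.5 and 299 CPM in the Chat negative and 310.4, 278 and 255 CPM in the Chat positive libraries. Srebf2, which encodes the form best known for sterol genes, was 388, 369.7 and 398 CPM in the Chat negative and 373, 363 and 309 CPM in the Chat positive libraries. In both, Chat positive 3 was the lowest library, and Chat positive 1 lay within the Chat negative range. Their log2 changes were -0.13 (SE 0.11) and -0.14 (SE 0.11). Scap, the escort that carries SREBPs to the Golgi, was 79.1 ± 9.50 CPM in the Chat negative and 75.4 ± 7.69 CPM in the Chat positive libraries (SD, n = 3), and Stard4, a sterol carrier that brings cholesterol to the endoplasmic reticulum, was 107 ± 6.70 CPM in the Chat negative and 99.4 ± 8.38 CPM in the Chat positive libraries (SD, n = 3). Both were lower in the Chat positive library of all 3 numbers, as were Srebf1 and Srebf2. Insig1, itself a target of SREBPs, was 95.03, 115 and 101 CPM in the Chat negative and 101, 119 and 102 CPM in the Chat positive libraries, and Insig2 was 63.5, 52.6 and 72.9 CPM in the Chat negative and 64.3, 59.2 and 73.8 CPM in the Chat positive libraries. Their log2 changes were 0.048 (SE 0.12) and 0.062 (SE 0.15), and -0.0042 and -0.018 with the length and GC correction. The libraries numbered 2 were the highest for Insig1 and the lowest for Insig2 in both gates. Of the bases in annotated Scap exons, 13.2% lie in exons of 5830462I19Rik on the opposite strand.

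Levels were compared between genes as CPM per kilobase of the longest GENCODE transcript, as the mean of all 6 libraries with its range. Scd2 (261, 231 to 305) and Acly (239, 200.5 to 290.1) were the highest and overlapped each other. Hmgcs1 followed at 174 (164 to 186) and Msmo1 at 157 (133 to 187), again with overlap. Cyp51, at 115 (107 to 125), lay below all of these without overlap. Next came a run of genes that each overlapped their neighbours in the order, Sqle (77.7), Fdps (76.02), Ebp (73.9), Mvd (73.05), Srebf2 (72.3), Fasn (68.8), Srebf1 (68.4) and Sc5d (61.4). Of the SREBP genes, Srebf2 ran from 60.9 to 78.3 and Srebf1 from 59.2 to 75.2, with overlap. The lowest 5 were Scd1 (8.10), Tm7sf2 (4.83), Idi1 (3.44), Elovl6 (3.19) and Acaca (1.58), where Idi1 overlapped both of its neighbours and Acaca lay below the others without overlap. The measured transcript levels of enzymes of 1 route therefore differed widely. Acly and Fasn, before and after Acaca in the route, were at 239 and 68.8 where Acaca was at 1.58. The level of Acaca is uncertain, since 52.6% of its transcript's 50-base words occur in the processed pseudogene Gm5182. Gm5182 was not among the genes of the count table, and how many Acaca reads it affects is not known. Idi1 shares 21.3% of its transcript's 50-base words with the pseudogene Gm13502, and Acat2 shares 45.9% with Acat3, which was at most 0.174 CPM.

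**Figure D3:**
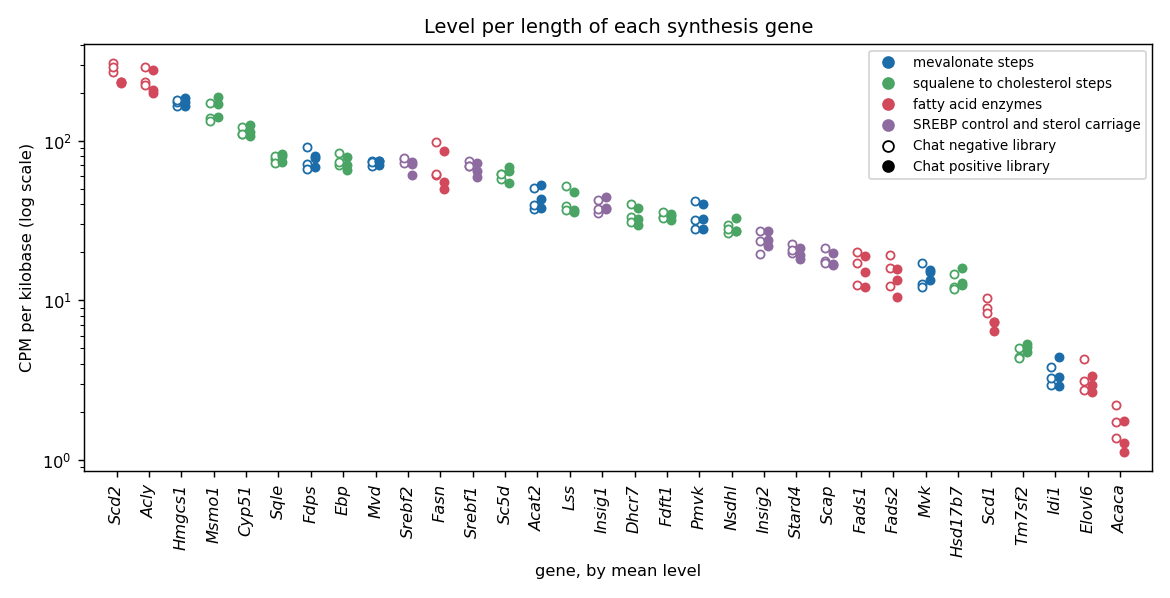
Level of each gene as CPM per kilobase of its longest transcript on a log axis, with 1 point a library coloured by arm, in order of the mean. Open points are Chat negative libraries and filled points are Chat positive libraries. Scd2 and Acly lead at 261 and 239, and Acaca is lowest at 1.58. The level of Acaca is uncertain, since 52.6% of its transcript's 50-base words occur in the pseudogene Gm5182.

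Sample number separated these genes more than the gate did. Of the 32, 20 (62.5%) were highest in number 2 in both gates, where 31.2% of all genes tested were. In contrast, 5 (15.6%) were lowest in number 2 in both gates, where 29.6% of all genes were. The 20 comprised 5 of the 7 mevalonate genes (Acat2, Mvk, Pmvk, Idi1 and Fdps), 5 of the 11 later sterol genes (Lss, Cyp51, Hsd17b7, Ebp and Dhcr7), all fatty acid enzymes but Scd2, and Scap, Insig1 and Stard4. The 5 that were lowest were Fdft1, Tm7sf2, Msmo1, Sc5d and Insig2. The enzymes of the sterol route therefore did not move together between numbers. Msmo1 was -0.21 and -0.35 in number 2 against the mean of the other numbers on the log2 scale, in the Chat negative and Chat positive gates, while Lss was 0.46 and 0.40. Fasn had the largest such differences, 0.68 and 0.72. Hmgcs1 hardly differed between numbers, at 0.020 and -0.0042.

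**Figure D4:**
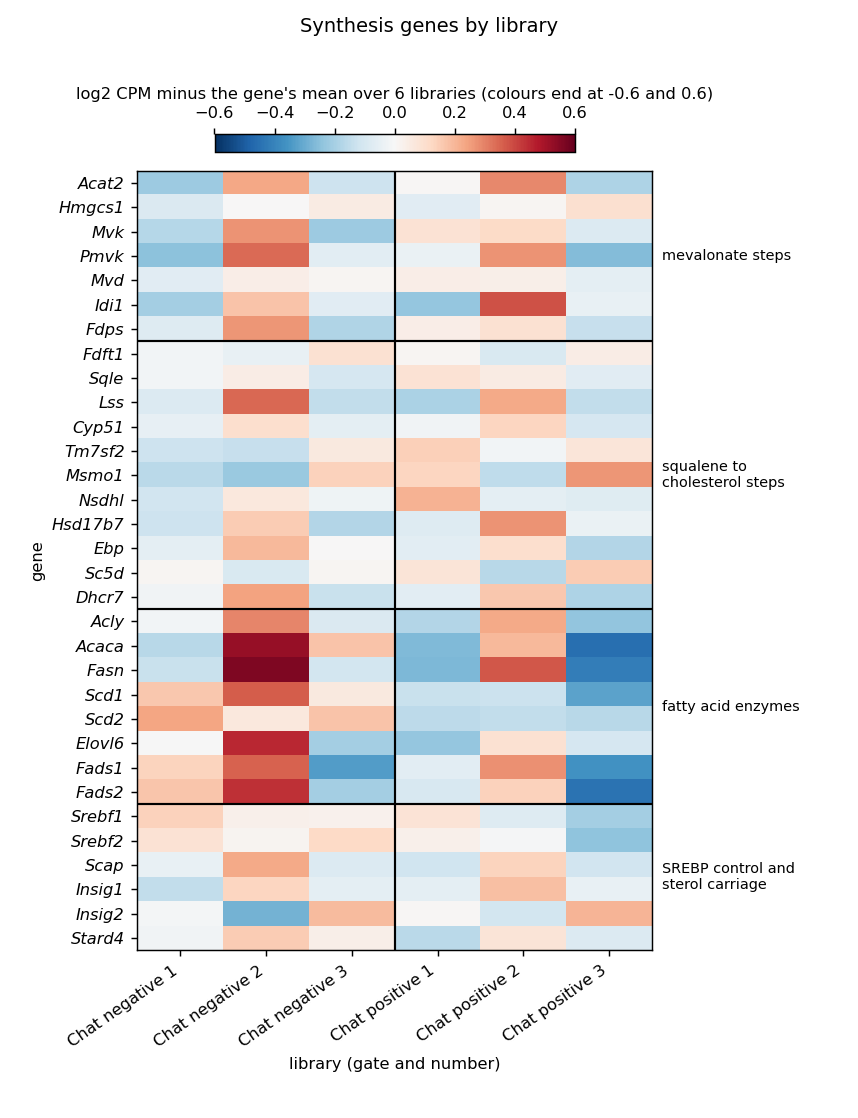
Log2 CPM of each gene in each of the 6 libraries minus the gene's mean over them, by arm. Most rows are highest in the libraries numbered 2 of both gates, Fasn most of all, and Msmo1, Sc5d and Insig2 are low there.

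Averaged over the 8 fatty acid enzymes, log2 CPM deviated from each gene's mean by 0.046, 0.38 and -0.068 in Chat negative 1, 2 and 3 and by -0.17, 0.13 and -0.31 in Chat positive 1, 2 and 3. Both number 2 libraries were above the mean, and each Chat positive library was below its Chat negative counterpart. For the 11 later sterol genes the 6 deviations stayed between -0.069 and 0.059. Of the sum of squares of log2 CPM, the gate took a median of 6.25% and the number 80.7% over the 32 genes, and 9.78% and 67.1% over all genes tested. Equal weight for each degree of freedom would give 20% and 40%. The SD of log2 CPM over the 6 libraries had a median of 0.17 for the 32 genes, 0.28 for the fatty acid enzymes and 0.26 for all genes. With the length and GC correction, 19 of these 20 genes were highest in number 2 in both gates and 4 of the 5 were lowest. Scd1 and Fdft1 no longer had their pattern, while Mvd became one of the highest and Scd2 one of the lowest. The part in this pattern of the marker sums that differed in number 2, given above, was not tested. Nor was the part of any difference between numbers in cell activation, growth or division.

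**Figure D5:**
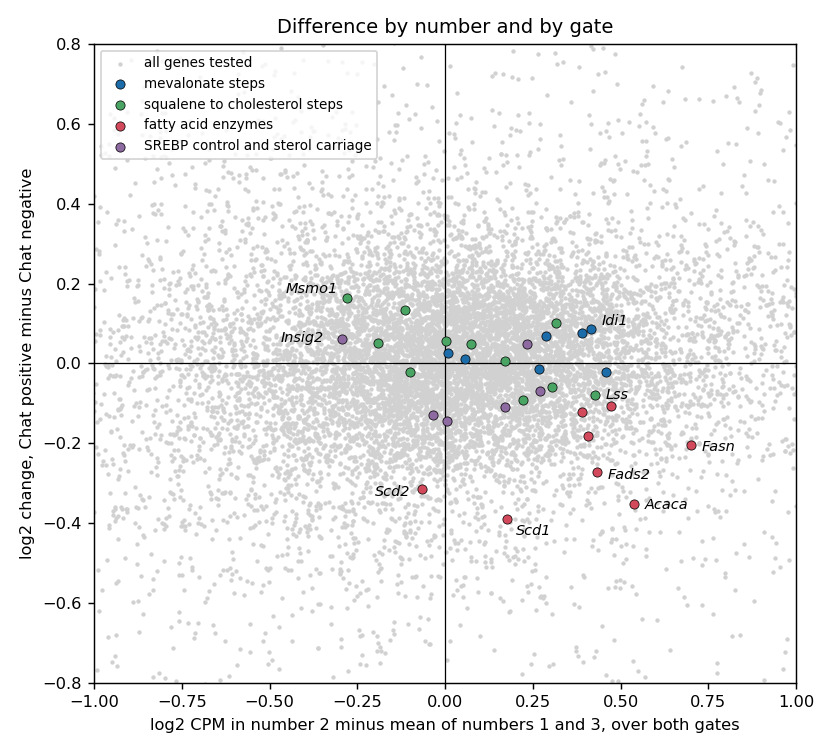
For each gene, log2 CPM in number 2 minus the mean of the other numbers, averaged over both gates, on the horizontal axis, against the log2 change between gates on the vertical axis. Coloured points are the 32 genes by arm and grey points are all genes tested within the axis limits. Of the 8 fatty acid enzymes, 7 lie to the right and below 0, with Fasn the farthest right of the 32, and Scd2 lies below 0 without a shift to the right.

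Genes around these routes were examined as lists, and edgeR without the block called none of them, with 1 (Plin2) at an unadjusted p under 0.05. Calls by DESeq2 with the block in these lists stand against the 3.28% and 2.2% of all genes that it called lower and higher, and 1 or 2 calls in a short list are not a result about that list. Of 12 genes of SREBP processing and turnover, 5 were above 0 and 7 below, with a median log2 change of -0.10. Rnf139, a ubiquitin ligase of the endoplasmic reticulum, and Erlin2, a scaffold protein of that membrane, had log2 changes of -0.22 (SE 0.18) and 0.13 (SE 0.12). Of 9 tested genes of sterol efflux and LXR targets, 1 was above 0 and 8 below, with a median of -0.18. Abca1, which exports cholesterol from cells, was 33.3, 31.9 and 47.3 CPM in the Chat negative and 23.5, 28.4 and 33.9 CPM in the Chat positive libraries, a log2 change of -0.39 (SE 0.21). The gates overlapped, and DESeq2 with the block called it at an adjusted p of 0.0312. DESeq2 with the block also called Lpcat3, an LXR target that remodels phospholipids, at 0.0339, a gene picked out after its values were seen, with a log2 change of -0.18 (SE 0.16). Abcg1, a second exporter, and Arl4c, an LXR target, had log2 changes of -0.19 (SE 0.13) and -0.18 (SE 0.15). Of 15 tested genes of sterol uptake, storage and trafficking, 6 were above 0 and 9 below, with a median of -0.061. The smallest p were those of Osbp, a sterol transfer protein, Lrp8, a lipoprotein receptor, and Soat2, which esterifies cholesterol, with log2 changes of -0.53 (SE 0.30), -0.46 (SE 0.27) and -0.36 (SE 0.25), all with overlapping gates.

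In the isoprenoid branch, which uses farnesyl diphosphate for other products, 5 of 14 genes were above 0 and 9 below, with a median of -0.0086. Rabggtb, a subunit of the enzyme that prenylates Rab proteins, was 25.1 ± 0.494 CPM in the Chat negative and 28.9 ± 0.594 CPM in the Chat positive libraries (SD, n = 3) and did not overlap between the gates, where 4.53% of all genes were higher without overlap. Its log2 change was 0.20 (SE 0.11), and 0.058 with the length and GC correction. Icmt, which methylates prenylated proteins, and Ggps1, which makes geranylgeranyl diphosphate, had log2 changes of -0.16 (SE 0.13) and 0.11 (SE 0.12). Of 25 other genes of fatty acid synthesis and activation, 14 were above 0 and 11 below, with a median of 0.019, so these did not lie on one side of 0 as the 8 fatty acid enzymes did. Mcat, the mitochondrial malonyl transferase, Mlx, a transcription factor partner, and Elovl7, an elongase under 1 CPM, were at 0.22 (SE 0.15), 0.15 (SE 0.12) and 0.61 (SE 0.50) on the log2 scale. DESeq2 with the block called 1 gene of that list, Aacs, which makes acetoacetyl-CoA for lipid synthesis, at 0.0369, also picked out after its values were seen, with a log2 change of -0.21 (SE 0.20). Of 18 tested genes of fatty acid oxidation, 11 were above 0 and 7 below, with a median of 0.033. Cpt1a, which admits fatty acids to mitochondria, was 157 ± 6.05 CPM in the Chat negative and 134 ± 19.2 CPM in the Chat positive libraries (SD, n = 3), and Etfdh, which passes electrons from fatty acid oxidation to the respiratory chain, had a log2 change of 0.23 (SE 0.15).

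Of 17 tested genes of lipid storage, 12 were above 0 and 5 below, with a median of 0.050. Plin2, which coats lipid droplets, was 116, 97.6 and 129 CPM in the Chat negative and 153, 128 and 165 CPM in the Chat positive libraries. Its Chat positive library was higher in 3 of 3 numbers, with overlap between the gates and a log2 change of 0.38 (SE 0.15). The adjusted p was 1.00 without the block, 0.0419 by edgeR with the block and 2.6e-05 by DESeq2 with the block. It was above the threshold in the other blocked fits, at 0.0856 by limma-voom, 0.104 without robust dispersions and 0.0943 with the length and GC correction. Lpin1, a phosphatidate phosphatase, had a log2 change of -0.27 (SE 0.18) and an adjusted p of 0.00721 by DESeq2 with the block, and Pnpla2, the droplet lipase, had -0.17 (SE 0.10). The third gene of that list called by DESeq2 with the block was Dgat1, which makes triglyceride, at 0.0247 and with a log2 change of 0.21 (SE 0.35). Of 3 further genes of sterol synthesis, 1 was above 0 and 2 below, with a median of -0.051, and DESeq2 with the block called 1 of them.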

How the data were processed

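Read counts per gene were deposited as 1 table of 6 libraries, whole numbers that the authors had not normalised, judging from the values. Per the submitters' processing notes, CASAVA 1.8.2, STAR 2.3.0 and mm10 were used. The counting program, its strand setting and its annotation are not given in the sources used. The labels' protocols name a SMARTer Ultra Low Input kit for the libraries.

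Of the 27179 Entrez IDs, 25275 took symbols from the RefSeq table of GRCm38.p6, and the 1904 others held at most 0.222% of a library's counts. Genes were kept by filterByExpr, scaled by TMM and tested in edgeR 4.0.16 (R 4.3.3) by the quasi-likelihood test with robust dispersions, without a block. Standard errors were those the F statistic implies. Alternatives were RLE, upper-quartile or no scaling factors, no filter, at least 5 CPM in 3 libraries, DESeq2 1.42.0, limma-voom (limma 3.58.1), non-robust dispersions, the replicate block and leaving out each library. Those added after seeing the data were the block without robust dispersions, a length and GC correction (loess, span 0.4) and leaving out both libraries of a number. Transcript lengths and shared 50-base words came from GENCODE vM21, taking the longest transcript. The scripts were tested on simulated data.

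Same-numbered libraries deviated together from their gate means, with correlations across genes of 0.29, 0.67 and 0.43, so the block treats them as pairs. This pairing comes from the data, not from a label, and Chat negative 1 correlated at 0.30 with Chat positive 3. The genes and lists were chosen with earlier results of these data known. All 32 genes are named, and of each other list the 3 with the smallest p. Some genes that this rule names are not reported here.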

Additional observations from a re-analysis of the deposited data

How the results depend on the processing

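Genes called over the whole table numbered 1 (Chat), 4 with DESeq2, 44 with the replicate block, 1 with the block in limma-voom, 1 with the block without robust dispersions, 476 with the block in DESeq2, 9 with the block and a length and GC correction, and 0 to 1 when 1 library was left out. They numbered 0, 2 and 0 without both libraries of number 1, 2 and 3. The adjusted p of Chat was 0.0961 with the block in edgeR, and Chat was also not called without Chat negative 1 or 3 or Chat positive 1 or 3, and its lowest log2 change in any fit was 3.06. Of the 32 genes, 3 were called with the block in DESeq2 and 0 under each other alternative run, the block in edgeR and limma-voom included.

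When 1 library was left out, the median log2 change was -0.12 to 0.045 for all 32 genes, -0.062 to 0.16 for the mevalonate steps, -0.37 to -0.051 for the fatty acid enzymes and -0.14 to -0.043 for SREBP control. It was 0.014 to 0.086 for squalene to cholesterol. Without number 1 the medians of the 32 genes and of the later sterol steps were -0.073 and -0.013, and without number 3 that of SREBP control was -0.060. Library totals gave -0.072 for SREBP control. The length and GC correction, without and with the replicate block, gave -0.044 and -0.047 for all 32 genes, -0.032 and -0.027 for the mevalonate steps, -0.016 and -0.0084 for the later sterol steps, -0.20 and -0.19 for the fatty acid enzymes, and -0.059 and -0.061 for SREBP control. The cause of these shifts was not tested.

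Of 736 values of single genes under alternatives, 671 kept their direction and side of the threshold, 3 became called (Fasn, Scd1 and Scd2 with the block in DESeq2) and 62 turned sign, in 21 genes. The other 11 genes did not turn sign in any alternative run, but their size moved when 1 library was left out, with ranges of Scd1 -0.46 to -0.30, Scd2 -0.36 to -0.27, Fads2 -0.43 to -0.11, Acaca -0.56 to -0.16, Srebf1 -0.21 to -0.078, Srebf2 -0.20 to -0.080, Msmo1 0.052 to 0.28, Tm7sf2 0.094 to 0.20, Sqle 0.010 to 0.086, Ebp -0.17 to -0.012 and Stard4 -0.18 to -0.058. Among the 21, Fdps was 0.0023 with library totals, and Cyp51 was -0.0026 with RLE factors, -0.0025 with DESeq2 and -0.0038 with the replicate block in DESeq2. With the length and GC correction, without and with the replicate block, 7 genes turned, with Hmgcs1 -0.052 and -0.053, Mvd -0.020 and -0.018, Idi1 -0.032 and -0.042, Cyp51 -0.017 and -0.018, Nsdhl -0.054 and -0.061, Insig1 -0.0042 and -0.0036, Insig2 -0.018 and -0.0097. Leaving out both libraries of number 1 turned Mvk (-0.029), Mvd (-0.042), Cyp51 (-0.013) and Nsdhl (-0.090), leaving out number 2 turned Pmvk (0.0048), Idi1 (-0.0011), Fdps (0.076) and Cyp51 (-0.010), and leaving out number 3 turned Pmvk (0.049). Sign turns also came from leaving out 1 library, with log2 ranges of Acat2 -0.062 to 0.22, Hmgcs1 -0.033 to 0.063, Mvk -0.022 to 0.24, Pmvk -0.18 to 0.16, Mvd -0.018 to 0.034, Idi1 -0.11 to 0.21, Fdps -0.10 to 0.13, Fdft1 -0.066 to 0.018, Lss -0.23 to 0.089, Cyp51 -0.061 to 0.060, Nsdhl -0.042 to 0.10, Hsd17b7 -0.019 to 0.21, Sc5d -0.031 to 0.14, Dhcr7 -0.16 to 0.058, Acly -0.28 to 0.0049, Fasn -0.48 to 0.061, Elovl6 -0.32 to 0.028, Fads1 -0.29 to 0.056, Scap -0.16 to 0.034, Insig1 -0.035 to 0.13 and Insig2 -0.052 to 0.18. With 3 libraries a gate, the median SE of a log2 change was 0.14 for these genes, and even Scd1, at -0.39 with an SE of 0.13, did not pass the adjustment over all genes.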
